A study of Xenopus laevis with 60 samples.

Results

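gs17.L and the btg genes make up 13 of the 49580 genes with deposited exon levels in wild-type embryos of the frog Xenopus laevis. They are every gene whose symbol is gs17 or btg followed by a digit: gs17.L, btg1.L, btg1.S, btg2.S, btg3.S, btg4.L, btg4.S, btg5.1.L, btg5.1.S, btg5.2.L, btg5.2.S, btg5.3.L and btg5.3.S. The endings L and S name the 2 subgenomes of this allotetraploid frog, and an L and an S gene of the same name are homeologs. The set was chosen by the exon and intron levels of gs17.L and btg5.2.S in the stage series and in the triptolide and cycloheximide libraries, where both stood among the most strongly activated genes. Their levels in those libraries are therefore given as a description, with no test. Tests on them were made only on morphant embryos, whose values the stated choice did not use, although earlier results of these data were known.

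BTG and TOB proteins share an amino-terminal BTG domain, which binds the CAF1 deadenylase (CNOT7 or CNOT8) of the CCR4-NOT complex, the machinery that shortens the poly(A) tails of mRNAs. In the mouse, BTG4 is needed for the clearance of maternal mRNAs when the egg becomes an embryo, while BTG1 and BTG2 are known in mammals as genes that slow cell proliferation, and BTG2 is also a p53 target and an immediate early gene. gs17, gastrula-specific gene 17, is transcribed from the onset of zygotic transcription into the gastrula, after the early frog embryo has divided for hours on maternal RNA alone. RNA that crosses introns comes mostly from newly made transcripts, so intron counts were used beside exon counts to separate new transcription from stored maternal mRNA.

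Each of the 60 libraries was ribosomal RNA-depleted, strand-specific RNA-seq of 2 whole embryos, from eggs of different mothers pooled at each collection, and they form 29 groups: 5 groups hold 1 library, 17 hold 2 and 7 hold 3. A first series took untreated embryos at Nieuwkoop and Faber stages 5 (2 libraries, COX2 and COX3 depleted), 6 (1), 7 (1), 8 (2), 9 (8 hours after fertilization, 2 libraries of collection A) and 10.5 (2, with GFP, mCherry and luciferase RNA added). A second series took embryos collected when untreated embryos were at stage 9. They were kept from stage 1 in the transcription inhibitor triptolide at 20 µM (collections A and B) or in its DMSO vehicle (A and B). Others were kept from stage 8 in the translation inhibitor cycloheximide at 500 µg/mL (B). For all treated embryos, stage 9 below names this time of collection. The paper states that the cycloheximide treatment inhibited progression to the later stage. Embryos with and without cycloheximide may therefore differ in the stage reached, and the part of this in the results was not tested. The morphant series took stage 9 embryos injected with translation-blocking morpholinos, called morphants. Against 80 ng of a GFP control morpholino with cycloheximide, collection C held pou5f3.3 morphants (40 ng, with 40 ng of GFP morpholino), sox3 morphants (40 ng, with 40 ng of GFP) and pou5f3.3 and sox3 morphants (40 ng each), and collection D held high-dose morphants (55 ng pou5f3.3 and 75 ng sox3), which thus received more morpholino than their controls. Without cycloheximide, collection G held pou5f3.3 and sox3 morphants (40 ng each with 40 ng of GFP) and their GFP controls (120 ng), and collection F held GFP controls (120 ng), pou5f3.2 and pou5f3.3 morphants (40 ng each with 40 ng of GFP), triple morphants (pou5f3.2, pou5f3.3 and sox3 at 40 ng each) and triple morphants with cycloheximide. Collection E, without cycloheximide, held 1 library each of untreated embryos, GFP controls (80 ng) and pou5f3.3 and sox3 morphants (40 ng each). Collection H (7 libraries) held GFP controls (120 ng) without cycloheximide. It also held GFP controls (120 ng) and triple morphants (40 ng each) with cycloheximide, both labelled as discarded. No library of H entered a test. A translation block leaves its mRNA in place, so the level of the targeted mRNA does not check the knockdown.

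Exon counts per library ran from 6814881 to 25549499 (median 14499376) and intron counts from 36766 to 1638148 (median 401340). Summed over 4 markers of maternal germ plasm and oocyte, libraries held 641 to 661 TPM (transcript shares corrected for length and scaled to a fixed total) at stage 5, 682 to 741 at untreated stage 9 and 163 to 168 at stage 10.5. The 4 ectoderm markers were at 0 in every stage 5 library, at 193 to 194 TPM in untreated stage 9 and at 505 to 534 at stage 10.5. The 6 mesoderm markers went over the same stages from 1.44 to 1.82, to 133 to 167, and to 923 to 956 TPM, 4 endoderm markers from 0.223 to 0.284, to 43 to 52.5, and to 286 to 296 TPM, and 4 dorsal organizer markers from 2.3 to 2.8, to 28.2 to 37.1, and to 108 to 111 TPM. Single markers were also called lower in exons or introns from stage 9 to stage 10.5, by the thresholds given below. Ectoderm markers had 2 called higher and 2 lower, mesoderm 4 and 2, dorsal organizer 2 and 2, and endoderm 4 and 0. Over all genes, 25.8% were called higher and 14.1% lower. These whole embryos change in cell number and kind between stages, and fewer cells of a kind cannot be told apart from less RNA per cell. The part of either in the results below was not tested.

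btg5.1.S, a homeolog of the btg5 subfamily, separates collections A and E from the other collections in every treatment, and within collections F and G it also differed between morphants and controls. It stood at 2.08 and 2.18 TPM at stage 5, at 1.74 to 3.57 TPM in all 6 libraries of collection A and at 1.63 to 3.19 TPM in the 3 of collection E. In the 43 libraries of collections B, C, D, F, G and H it stood at 50.7 to 306 TPM, so these libraries do not overlap with those of A and E. Stages 6 and 7 stood with the high libraries (73.6 and 82.9 TPM), as did stage 8 (53.5 and 55.6 TPM), while stage 10.5 was low (1.76 and 1.57 TPM). Embryos treated with triptolide from stage 1 held a mean of 3.02 TPM in collection A and 127 TPM in collection B, a ratio of 42. For a count over genes, 1 TPM was added to both means, which gave btg5.1.S a log2 ratio of 4.99. Of 13783 genes with a mean of at least 10 TPM in either of these groups, 4 reached this value in B, btg5.1.S included. In the other direction, 3 were as much higher in A on that scale. No intron count fell on btg5.1.S in any library, but only 451 bases of its introns were counted. Stages 5, 6, 7, 8 and 10.5 carry no collection label, so for every comparison of stages below, stage and source of the eggs cannot be told apart.

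**Figure D1:**
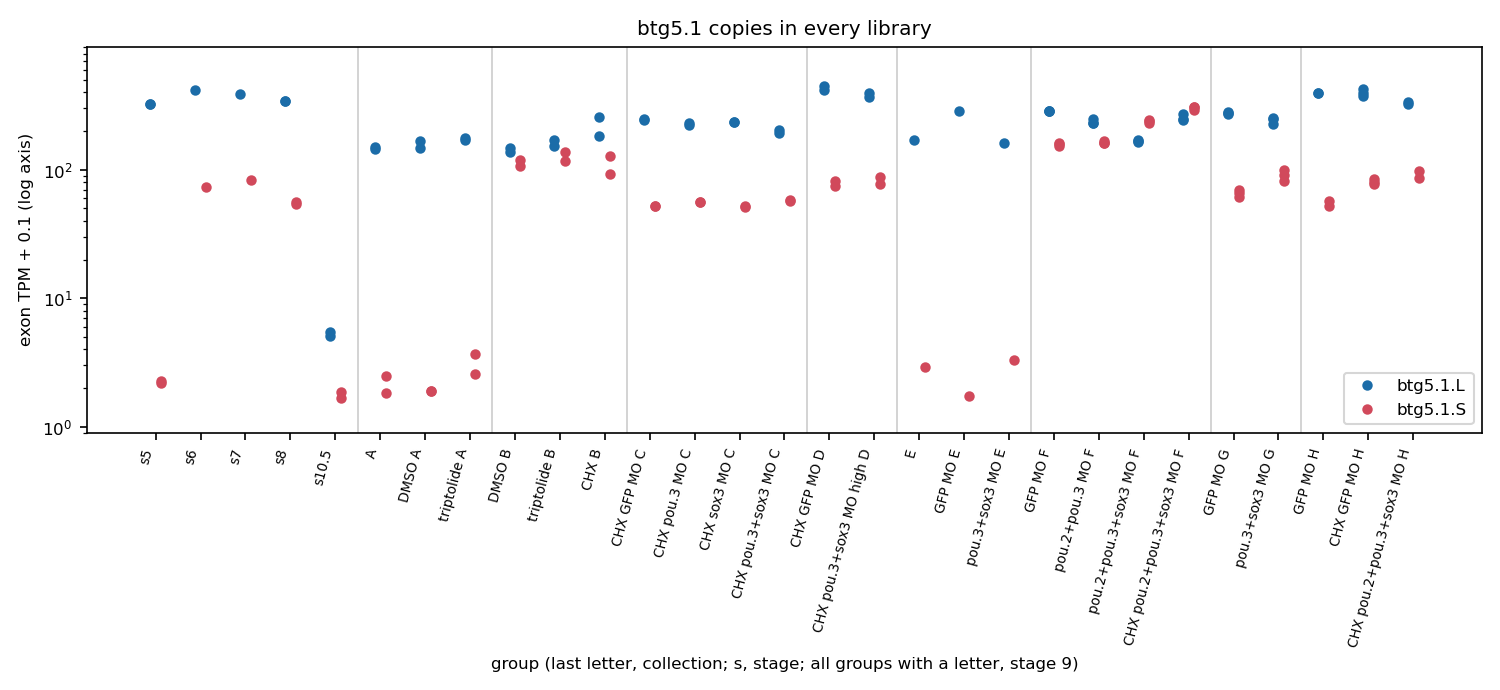
Exon level of btg5.1.L (blue) and btg5.1.S (red) in each library, in TPM plus 0.1 on a log axis, by group, with grey lines between collections. btg5.1.S is at most 3.57 TPM in collections A and E and at least 50.7 TPM in collections B, C, D, F, G and H, while btg5.1.L is above 100 TPM in every library but those of stage 10.5.

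Of the 13 genes, 12 had an exon entry that passed the filter on low values, and 6 also had an intron entry (gs17.L, btg5.2.S, btg5.3.L, btg1.L, btg1.S and btg4.L). btg5.3.S did not pass, with at most 3 exon counts in a library. A gene was called changed at an adjusted p under 0.05 (edgeR, over all entries tested) together with a log2 difference of at least 1.5 in exons or introns. Reads that map to more than 1 place were not counted, so levels of near-identical copies are uncertain.

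gs17.L was all but absent before stage 8 and among the most abundant RNAs of the gastrula. Its exon level was 0.122 and 0 TPM at stage 5, 0 TPM at stages 6 and 7, 1.71 and 3.8 TPM (4 and 9 counts) by stage 8, 242 and 287 TPM in untreated embryos of stage 9, and 744 and 762 TPM by stage 10.5. The stages did not overlap from stage 7 onward. Per exon count, stage 8 was 44.4-fold above stage 5 (95% counting interval 6.67 to 1887, 13 against 1 counts), and stage 9 was 4309-fold above stage 5 (773 to 170265). Such intervals, and the floors used below, cover counting error only. By mean TPM, gs17.L ranked 350 of 49580 genes at stage 9 and 103 at stage 10.5.

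Introns of gs17.L peaked earlier than its exons. They held no count at stages 5, 6 and 7, then 0.265 and 0.384 RPKM (intron counts per counted length and per exon counts of the library) at stage 8, 56 and 53.2 at stage 9, and 6.98 and 8.36 at stage 10.5. Against a floor of 3 counts per library at stage 5, the intron level was at least 2.84-fold higher at stage 8 and at least 478-fold higher at stage 9. Counted introns leave out stretches covered at stage 5, so intron rises over stage 5, here and below, in part follow from that choice. Exon TPM was thus highest at stage 10.5 and intron RPKM at stage 9, with no overlap of the libraries of both stages on either scale.

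btg5.2.S, listed in RefSeq also as btg-x, came on between stages 8 and 9. Stage 5 libraries held 0.199 and 0 TPM of its exons, the stage 6 library 0.255, the stage 7 library 0, the stage 8 libraries 0 and 0.344, the untreated stage 9 libraries 77.7 and 88.1, and the stage 10.5 libraries 46.6 and 53 TPM. In this series stage 9 lay above every other stage, but the stage 10.5 libraries lay within the range of other stage 9 embryos, such as the DMSO libraries of collection B (48.1 and 47.2 TPM) and the GFP controls of collection G (47.7, 55.6 and 46.4 TPM). Per exon count, its exons were 831-fold (229 to 6869) above stage 5 and 487-fold (87.2 to 19237) above stage 8, where a single count was found. Its introns stood at 23.9 and 25.9 RPKM at stage 9 and at 6.4 and 4.05 RPKM at stage 10.5.

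btg5.3.L, annotated as a transcribed pseudogene in RefSeq (Xenopus laevis v10.1), also came on between stages 8 and 9, after a small maternal contribution. Stage 5 libraries held 4.81 and 4.83 TPM and the stage 6 library 0.116 TPM. It was at 0 in the stage 7 library and in both of stage 8, reached 56.7 and 63.7 TPM by stage 9, and 124 and 137 TPM by stage 10.5. Stage 5 was at least 5.11-fold higher than stage 8, and stage 9 at least 63.8-fold higher than stage 8, with 3 counts per library as the floor. Stage 9 exceeded stage 5 by a log2 difference of 3.51 ± 0.209 (SE, adjusted p = 1.02e-20). Its introns stood at 0 and 0.011 RPKM at stage 5 and at 11.9 and 13.9 at stage 9, 2397-fold higher per exon count (430 to 94737, 1656 against 1 counts), with a fitted log2 difference of 10.61 that ran from 9.73 to 12.47 when either stage 5 library was left out. From stage 9 to stage 10.5 the exon difference of 1.26 ± 0.141 (adjusted p = 3.77e-11) did not reach 1.5, although it did, at 1.56 and 1.53, when libraries were scaled with DESeq2's size factors or from exons alone, and introns differed by -0.88.

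**Figure D2:**
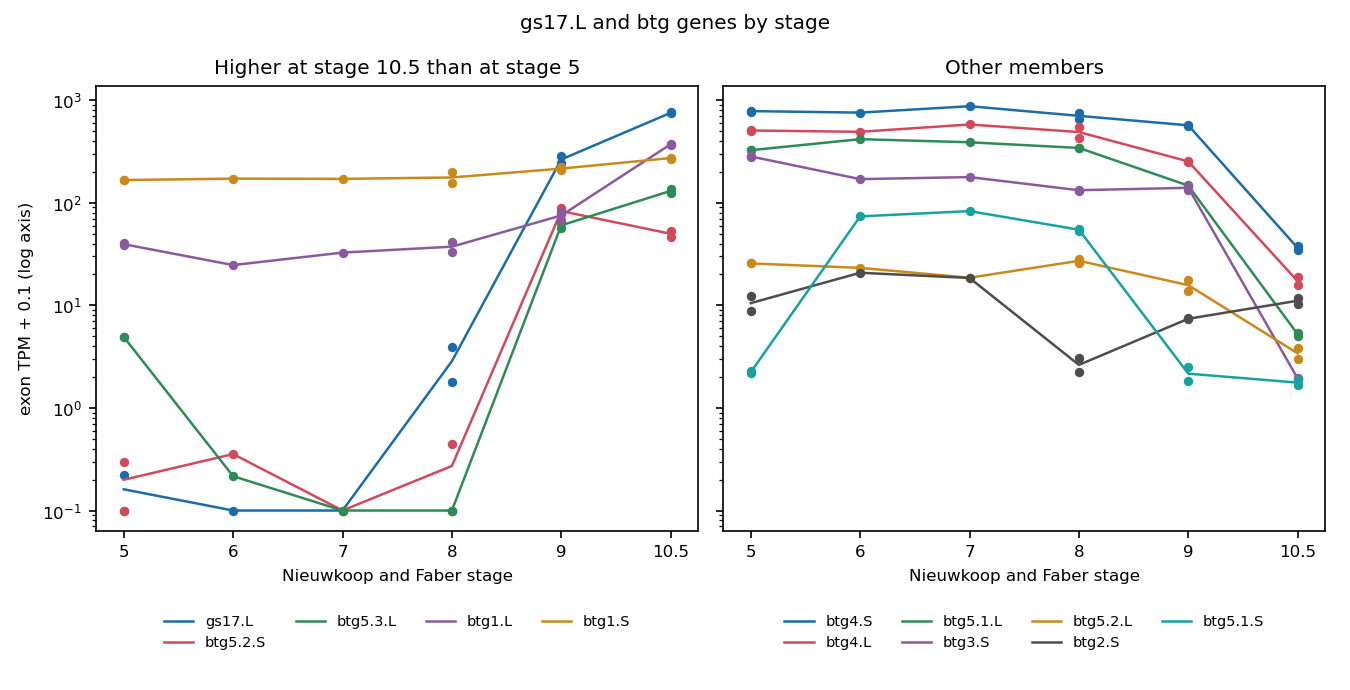
Exon levels of 12 genes from stage 5 to stage 10.5, in TPM plus 0.1 on a log axis, with a point for each library and a line through the means (stage 9 is untreated collection A). In the left panel gs17.L is at 1.71 and 3.8 TPM and btg5.2.S and btg5.3.L are at most 0.344 TPM at stage 8, all 3 are at 56.7 TPM or more at stage 9, and btg1.L reaches 370 and 374 TPM at stage 10.5, and in the right panel btg4.S, btg4.L, btg5.1.L, btg3.S and btg5.2.L are all lowest at stage 10.5.

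The btg1 homeologs were maternal genes that were also newly transcribed at stage 9. For btg1.L, stage 5 libraries held 40.4 and 38.4 TPM, those of stage 8 32.7 and 41.8, those of stage 9 68.6 and 81.6, and those of stage 10.5 370 and 374. Its exons differed from stage 5 to stage 9 by 0.8 ± 0.108 on the log2 scale (adjusted p = 7.46e-09), under the fold threshold, and rose by 2.45 ± 0.1 from stage 9 to stage 10.5 (adjusted p = 2.46e-27). Its introns went from 0.024 and 0.075 RPKM at stage 5 to 6.52 and 9.19 at stage 9 and 16.1 and 16.5 at stage 10.5. They rose by 7.03 ± 0.388 from stage 5 to stage 9 (adjusted p = 4.28e-23), and by 6.39 to 7.87 when either stage 5 library was left out. Per exon count the introns were 93.3-fold (25.7 to 772) above stage 8.

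btg1.S was more abundant and steadier, with 165 and 168 TPM in stage 5 libraries, 155 and 198 in those of stage 8, 207 and 224 in those of stage 9 and 270 and 276 in those of stage 10.5. Its exons differed by only 0.24 between stages 5 and 9, and its introns rose by 5.85 ± 0.517 (adjusted p = 1.84e-14), or by 5.11 to 6.99 without either stage 5 library, from 0.025 and 0.102 to 3.31 and 5.47 RPKM. Against stage 8 the introns of btg1.S were 50.7-fold higher (13.9 to 421, 239 against 2 counts), a fitted difference of 5.43 that became 4.49 or 9.73 when either stage 8 library was left out. Exon levels alone thus gave no call for either btg1 gene between stages 5 and 9, whereas introns did for both. Counted introns leave out stretches covered at stage 5, so these intron calls partly follow from that choice. The median intron difference between these stages was 3.54 over all genes. The L copy supplied 18.6% to 19.6% of summed btg1 TPM at stage 5, 24.9% to 26.7% at stage 9 and 57.5% to 57.8% at stage 10.5.

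btg4.L and btg4.S, homeologs of each other and homologues of mouse BTG4, were the most abundant members in the stage series up to stage 8. At untreated stage 9 btg4.S was still the highest, while gs17.L (a mean of 264 TPM) stood level with btg4.L (253 TPM). With 792 and 774 TPM, btg4.S ranked 36 of 49580 genes at stage 5. It held 658 and 750 TPM by stage 8, 562 and 576 by stage 9 and 37.7 and 34.7 by stage 10.5. Over stages 5, 8, 9 and 10.5, btg4.L stood at 500 and 513, 426 and 553, 256 and 250, and 18.6 and 15.6 TPM. From stage 9 to stage 10.5 btg4.S fell by 3.84 ± 0.128 on the log2 scale (adjusted p = 5.16e-31) and btg4.L by 3.75 ± 0.17 (adjusted p = 1.83e-25). Between stages 5 and 9 the differences were -0.59 for btg4.S and -1.13 for btg4.L, under the fold threshold.

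btg5.1.L, btg3.S and btg5.2.L, members of the btg5 and btg3 subfamilies, were likewise present at stage 5 and low at stage 10.5. Over the same stages btg5.1.L stood at 325 and 326, 341 and 344, 144 and 150, and 5.32 and 4.95 TPM, and fell by 4.71 ± 0.125 from stage 9 (adjusted p = 4.05e-35). btg3.S stood at 284 and 282, 134 and 131, 147 and 133, and 1.81 and 1.87 TPM, and fell by 6.11 ± 0.241 from stage 9 to stage 10.5 (adjusted p = 5.34e-28). Between stages 5 and 8 btg3.S differed by -1.09 ± 0.134 (adjusted p = 4.78e-09), which did not reach the fold threshold. btg5.2.L stood at 25.6 and 25.5, 28.4 and 25.8, 17.7 and 13.6, and 3.73 and 2.88 TPM, and fell by 2.11 ± 0.224 (adjusted p = 6.98e-12). btg2.S, the homologue of the mammalian p53 target, was low throughout, with 12.2 and 8.64, 2.12 and 2.94, 7.25 and 7.36, and 11.7 and 10.3 TPM in stages 5, 8, 9 and 10.5. The single libraries of stages 6 and 7 held more of it, at 20.7 and 18.4 TPM. From stage 5 to stage 8 btg2.S fell by 2.03 ± 0.465 (adjusted p = 0.000575).

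Counted over the 10 genes tested on the stage series (all but gs17.L, btg5.2.S and btg5.3.S), 3 were called between stages 5 and 8, btg5.1.S higher and btg2.S and btg5.3.L lower, where 12.7% of all genes tested were called, 8.31% higher and 4.39% lower. From stage 5 to stage 9, 3 rose (btg1.L, btg1.S and btg5.3.L), where 41.3% of all genes were called, 35.4% higher and 6.44% lower. From stage 8 to stage 9, 4 were called, the same 3 higher and btg5.1.S lower, where 32.1% of all genes were called, 26.7% higher and 5.74% lower. From stage 9 to stage 10.5, 6 were called, btg1.L higher and 5 lower (btg3.S, btg4.L, btg4.S, btg5.1.L and btg5.2.L), where 39.2% of all genes were called, 25.8% higher and 14.1% lower. For btg5.1.S, the call from stage 5 to stage 8 (a log2 difference of 4.68 ± 0.166) compared libraries that all lack a collection label. Its call from stage 8 to stage 9 (-4.86 ± 0.179) set libraries of no collection label beside collection A. This gene differs between collections by the pattern given above. Over all genes the median exon difference was -0.16 from stage 5 to stage 9 and -0.21 from stage 9 to stage 10.5, and the median intron differences were 3.54 and 1.12.

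Summed over all btg genes, embryos held 2151 and 2143 TPM at stage 5, 1546 and 1589 at stage 9 and 893 and 913 at stage 10.5. The 2 btg4 genes supplied 60% and 60.1% of that sum at stage 5 and 6.31% and 5.51% at stage 10.5, while the btg1 genes went from 9.56% and 9.65% to 71.7% and 71.2%. The family total thus passed from btg4 to btg1 within the time covered. TPM is a share per transcript length, so this compares levels between genes within a library.

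Triptolide, which blocks RNA polymerase II transcription, left gs17.L and btg5.2.S near 0. gs17.L stood at 272 and 289 TPM in DMSO and at 0.174 and 1.07 TPM in triptolide in collection A, and at 252 and 259 against 0 and 0 TPM in collection B, where DMSO was at least 736-fold higher than triptolide. In collection A, triptolide libraries still held gs17.L introns at 0.262 and 0.271 RPKM (5 counts each), at least 2.33-fold above the floor at stage 5, beside 52.5 and 57.3 in DMSO. In collection B the introns stood at 43.8 and 44.5 RPKM in DMSO and at 0.038 and 0 in triptolide. btg5.2.S stood at 90.4 and 101 TPM in DMSO and 0.283 and 0 in triptolide in A, 686-fold apart (189 to 5670), and at 48.1 and 47.2 against 0 and 0 in B, at least 169-fold apart. The DMSO and triptolide libraries of each collection were far apart for both genes.

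btg5.3.L fell in triptolide to a residual level that differed between collections. DMSO held 68.9 and 71 TPM and triptolide 0.515 and 0.132 in A, and 47.3 and 41.7 against 1.5 and 2.65 in B. The log2 difference of DMSO over triptolide was 7.52 ± 0.37 in A (adjusted p = 8.1e-24, and 8.89 without the first triptolide library) and 4.3 ± 0.25 in B (adjusted p = 5.48e-21). Introns of btg5.3.L stood at 15.4 and 14.4 against 0.103 and 0.015 RPKM in A, and at 9.6 and 9.67 against 0.021 and 0 in B, where DMSO was 938-fold higher (259 to 7755).

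For the btg1 genes, DMSO and triptolide libraries differed by more than the fold threshold in introns and by less in exons. btg1.L introns stood at 5.77 and 6.91 RPKM in DMSO and 0.235 and 0.035 in triptolide in A, a difference of 5.31 ± 0.381 (adjusted p = 4.8e-18, 7.32 or 4.67 without either triptolide library). In B they stood at 4.98 and 5.18 against 0 and 0.068, 145-fold apart (49 to 705), with a fitted difference of 6.89 that became 6.04 or 10.03 without either triptolide library. btg1.L exons differed by 0.69 and 0.67 on the log2 scale, at 77.8 and 76 against 38.3 and 47.7 TPM in A and 60.5 and 52.6 against 30.6 and 35.6 TPM in B. The triptolide libraries of A overlapped with stage 5 for btg1.L (40.4 and 38.4 TPM), and those of B lay below it. btg1.S introns differed by 3.65 ± 0.45 in A (adjusted p = 1.09e-09) and by 5.85 ± 0.48 in B (adjusted p = 2.01e-15, 7.33 or 5.07 without either triptolide library), and its exons overlapped in A (212 and 218 against 223 and 213 TPM). The median intron difference of DMSO over triptolide was 2.73 in A and 3.36 in B over all genes.

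Of the members with a mean above 10 TPM at stage 5, none had an exon entry called lower in triptolide. btg3.S was higher in triptolide in A (230 and 223 against 137 and 126 TPM, a DMSO over triptolide difference of -0.93 ± 0.13, adjusted p = 3.27e-08), whereas in B its levels overlapped (69.7 and 134 against 71.8 and 54 TPM, -0.79 ± 0.134, adjusted p = 2.32e-06). For btg4.L, btg4.S and btg5.1.L the differences lay between -0.39 and -0.28 in both collections, against medians of -0.2 and -0.13 over all exon entries. btg4.L introns, however, were called in collection B, at 0.365 and 0.238 RPKM in DMSO and 0 and 0.012 in triptolide, 46.3-fold apart with an interval of 7.76 to 1885 (33 against 1 counts). This intron entry passed the filter on low values only through the DMSO library at 0.365 RPKM. Its calls in collection B are therefore a description and no test. The fitted difference of 4.97 ± 0.839 became 4.24 or 6.82 without either triptolide library. In collection A the matching difference was -1.4 ± 1.54 (adjusted p = 0.484), at 0.021 and 0 RPKM in DMSO and 0.018 and 0.038 in triptolide.

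In all, 3 of 10 genes tested were called in A (btg1.L, btg1.S and btg5.3.L) and 4 in B, all higher in DMSO. The call added in B was that of btg4.L, by the intron entry that passed the filter only through DMSO there. Over all genes, 27.6% were called in A, 27.4% higher and 0.167% lower in DMSO, and 30.0% in B, 29.8% higher and 0.188% lower. Embryos kept in triptolide from stage 1 until stage 9 could also be set beside stage 5, and there btg5.3.L alone was called of the 10, where 12.7% of all genes were called, 6.98% higher and 5.85% lower. It fell by 3.78 ± 0.657 (adjusted p = 6e-06), with a value of -5.10 without the first triptolide library. btg5.1.L was lower than at stage 5 by a log2 difference of -0.87 (adjusted p = 2.05e-13), btg4.L by -0.79 (adjusted p = 8.56e-08) and btg5.2.L by -0.67, all under the fold threshold.

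Cycloheximide, added at stage 8 to block translation of newly made mRNAs, left gs17.L and btg5.2.S at levels between those of triptolide and DMSO, and to different degrees. gs17.L stood at 11.4 and 7.81 TPM and btg5.2.S at 11.3 and 17.2 TPM with cycloheximide, beside 252 and 259 TPM and 48.1 and 47.2 TPM in DMSO. Against the floor in triptolide, gs17.L was at least 27.6-fold and btg5.2.S at least 50.5-fold higher with cycloheximide. Introns with cycloheximide stood at 1.46 and 1.7 RPKM for gs17.L (85.7-fold over triptolide, 14.8 to 3439) and 3.04 and 1.81 RPKM for btg5.2.S (at least 33.6-fold). The first fold is a ratio of counts and the second a lower bound, so they do not rank the genes. The cycloheximide libraries of both genes overlapped with neither the DMSO nor the triptolide libraries. In the stage 8 libraries gs17.L stood at 1.71 and 3.8 TPM and btg5.2.S at 0 and 0.344 TPM. How much of the difference from DMSO came from the stage reached in cycloheximide was not tested.

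btg5.3.L stood at 13 and 16.1 TPM with cycloheximide, above triptolide by 2.62 ± 0.311 (adjusted p = 1.11e-09) and below DMSO by a log2 difference of -1.68 ± 0.186 (adjusted p = 9.77e-11). Without the first cycloheximide library the difference from DMSO became -1.50, just short of the threshold before rounding, and this exon call was lost. Introns of btg5.3.L, at 0.549 and 0.568 RPKM, were 54.4-fold above triptolide (14.6 to 457), and the fitted difference of 5.44 ran from 4.48 to 8.08 without either triptolide library. btg1.L introns, at 0.524 and 0.49 RPKM, were 14.5-fold above triptolide (4.54 to 74.1), a fitted difference of 3.62 that became 2.77 or 6.76 without either triptolide library, and fell by 3.27 ± 0.289 against DMSO. btg1.S introns, at 1.4 and 0.466 RPKM, rose by 3.59 ± 0.712 over triptolide (adjusted p = 7.74e-05). That call was lost without the first cycloheximide library (2.56, adjusted p = 0.0614), and the value was 5.08 or 2.82 without either triptolide library. Against DMSO the btg1.S introns fell by 2.26 ± 0.305 (adjusted p = 1.85e-08), and the value was -3.29 without that same cycloheximide library. The median intron difference over all genes was 1.31 for cycloheximide over triptolide and -1.79 for cycloheximide against DMSO.

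**Figure D3:**
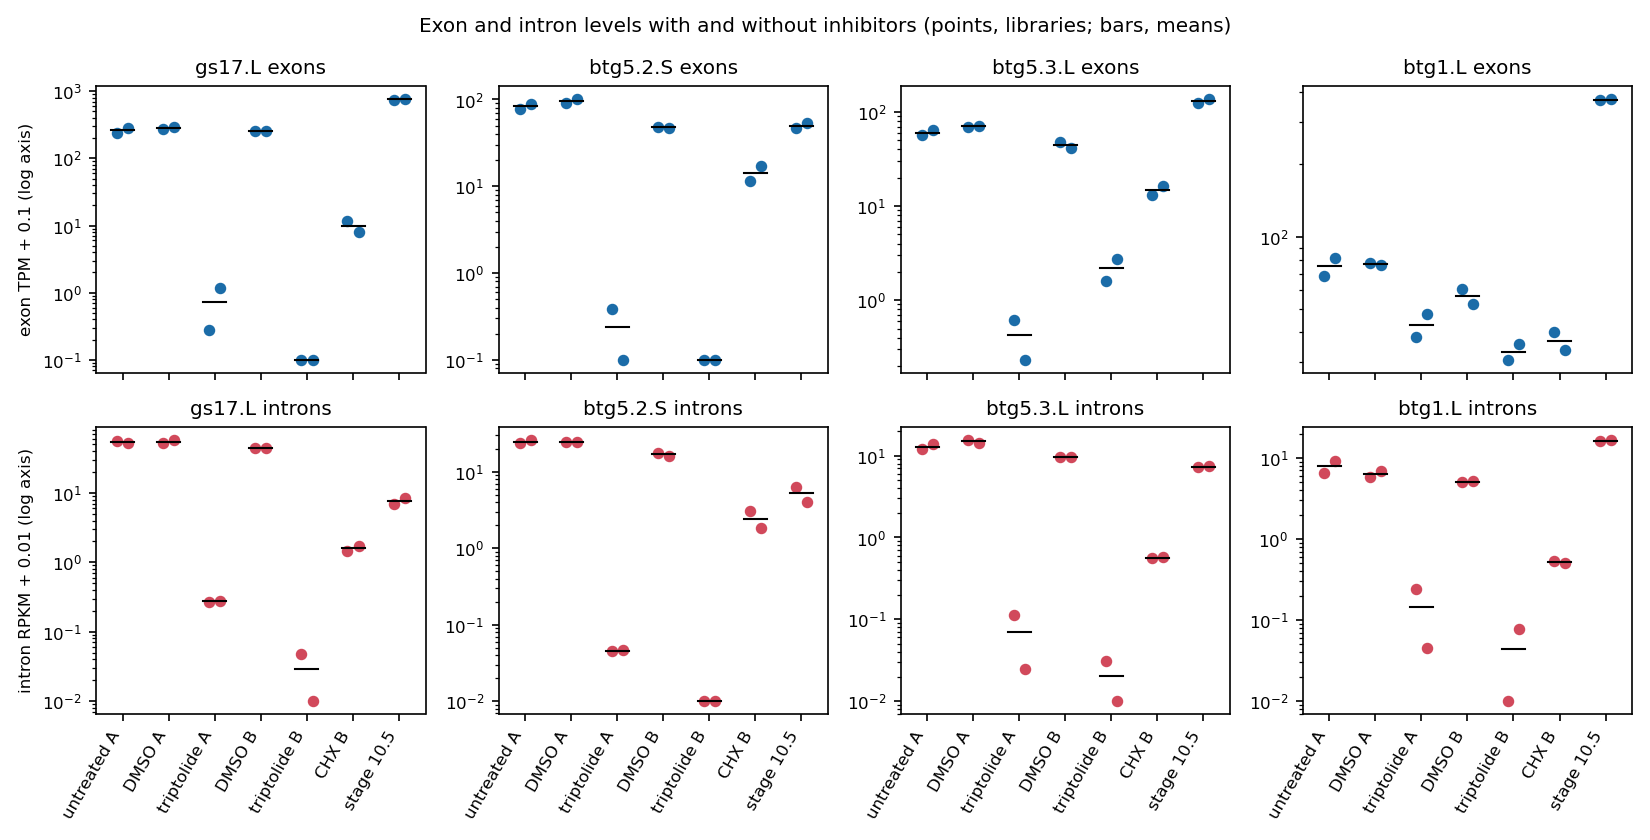
Exon level (top, TPM plus 0.1) and intron level (bottom, RPKM plus 0.01), both on log axes, of gs17.L, btg5.2.S, btg5.3.L and btg1.L at stage 9 and stage 10.5. Points are libraries and bars are group means. gs17.L at 7.81 to 11.4 TPM and btg5.2.S at 11.3 to 17.2 TPM with cycloheximide lie between triptolide and DMSO, and btg1.L separates the treatments in introns more than in exons.

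Of 10 genes tested, 3 were called with cycloheximide over triptolide (btg1.L, btg1.S and btg5.3.L), where 14.7% of all genes were called, 14.2% higher and 0.493% lower. Against DMSO 4 were called lower (the same 3 and, by introns, btg4.L), where 22.8% of all genes were called, 2.21% higher and 20.6% lower. For btg4.L this rested on 33 counts in DMSO and 3 with cycloheximide, 11.4-fold apart (3.56 to 57.9). Its intron entry passed the filter only through a DMSO library of this collection, so this call is a description and no test. Exons of 5 members present at stage 5 were higher with cycloheximide than with DMSO, by log2 differences of 0.73 for btg4.L, 0.44 for btg4.S, 0.57 for btg5.1.L, 0.68 for btg5.2.L and 0.99 for btg3.S. Those of others were not, with -0.67 for btg1.L (adjusted p = 3.18e-06), -0.18 for btg1.S (adjusted p = 0.0638), -0.28 for btg2.S (adjusted p = 0.405) and -0.09 for btg5.1.S (adjusted p = 0.491). None of these 9 reached 1.5, and the median over all exon entries was 0.08.

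In triple morphants of collection F, which the stated choice of members did not use, gs17.L and btg5.2.S could be tested with and without cycloheximide. Both were chosen for strong activation from near 0, so a large fall with cycloheximide was likely in advance. gs17.L stood at 184, 178 and 174 TPM without and 1.94, 2.15 and 1.1 TPM with cycloheximide, and fell by 6.66 ± 0.174 on the log2 scale (adjusted p = 6.38e-35). btg5.2.S stood at 129, 104 and 109 against 7.02, 10.2 and 2.84 TPM, and fell by 4.1 ± 0.174 (adjusted p = 1.94e-27). btg5.3.L stood at 132, 106 and 96.3 against 1.17, 0.956 and 0.408 TPM, and fell by 6.99 ± 0.241 (adjusted p = 2.33e-30). Introns of btg1.L fell by 7.54 ± 0.309 (adjusted p = 1.3e-28, and the value was -8.28 without the second cycloheximide library), while its exons differed by -1.22, and introns of btg1.S fell by 3.86 ± 0.429 (adjusted p = 3.92e-11). Of 12 genes 5 were thus called, all lower with cycloheximide, where 31.7% of all genes were called, 0.514% higher and 31.2% lower. The median difference over all genes was 0.1 in exons and -2.86 in introns. The difference between the cycloheximide effect in morphants and in uninjected embryos was not tested. Nor was the part of the stage reached, which may differ with cycloheximide.

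Knockdown of pou5f3.3 and sox3, the maternal pluripotency factors, without cycloheximide called none of the 12 genes tested in collection G, where 4.87% of all genes were called, 3.42% higher and 1.45% lower. Without the fold threshold, 7 of them had an unadjusted p under 0.05 in edgeR, beside 32.6% of all genes, and 6 an adjusted p under 0.05, beside 18.7%. DESeq2 called 0. gs17.L was higher in the morphants, at 191, 170 and 208 TPM against 150, 125 and 124 in GFP controls, a log2 difference of 0.43 ± 0.0865 (adjusted p = 0.000164). btg5.2.S stood at 61.4, 78.2 and 80.2 against 47.7, 55.6 and 46.4 TPM (0.49 ± 0.132, adjusted p = 0.00606) and btg5.3.L at 38.6, 33.3 and 47 against 28.6, 19.2 and 14.7 TPM (0.83 ± 0.159, adjusted p = 8.81e-05). For these 3 genes every morphant library lay above every GFP library. The share of all genes whose libraries separated in this way was not counted. Introns of btg1.L stood at 7.63, 6.38 and 6.11 against 2.25, 2.57 and 2.64 RPKM (1.31 ± 0.182, adjusted p = 1.18e-07). Over all genes the median difference was -0.09 in exons and 0.51 in introns.

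In collection F the morphants gave 0 calls among the 12 genes as well, both with pou5f3.2 and pou5f3.3 knocked down and with sox3 added. DESeq2 also called 0. In the former 3.86% of all genes were called, 2.24% higher and 1.62% lower, and in the latter 6.70%, 3.86% higher and 2.83% lower. Without the fold threshold, 6 of the 12 had an unadjusted p under 0.05 in the former, beside 23.9% of all genes, and 8 in the latter, beside 30% of all genes. gs17.L stood at 184, 208 and 193 TPM in GFP controls, 239, 219 and 219 in pou5f3.2 and pou5f3.3 morphants and 184, 178 and 174 in triple morphants. The differences from GFP were 0.18 (adjusted p = 0.188) and -0.18 (adjusted p = 0.145), and triple differed from double morphants by -0.36 ± 0.0816 (adjusted p = 0.00256). btg5.2.S stood at 84.8, 94.7 and 89.5, then 112, 120 and 124, then 129, 104 and 109 TPM (0.37, adjusted p = 0.02, and 0.3, adjusted p = 0.0678). btg5.3.L stood at 62.5, 70 and 77.3, then 115, 109 and 96.8, then 132, 106 and 96.3 TPM (0.58, adjusted p = 0.000136, and 0.62, adjusted p = 2.48e-05). Every morphant library of btg5.2.S and btg5.3.L lay above the GFP libraries, by less than the fold threshold. Here too, the share of all genes that separated so was not counted. Between triple and double morphants 0 of the 12 were called by either tool, with 6 at an unadjusted p under 0.05 (19.3% of all genes), where edgeR called 0.953% of all genes, 0.257% higher and 0.696% lower.

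With cycloheximide, the doses of collection C gave no call among the 12 genes. The pou5f3.3 morphants had none at an adjusted p below 0.693, where 0.692% of all genes were called, 0.0217% higher and 0.670% lower. The sox3 morphants had no call either, where 0.0181% of all genes were called, all of them lower. In each, 1 of the 12 had an unadjusted p under 0.05, beside 8.31% and 5.99% of all genes, and DESeq2 called 0. In pou5f3.3 and sox3 morphants 4 had an unadjusted p under 0.05, beside 11.8% of all genes, where 2.21% of all genes were called, 0.0399% higher and 2.17% lower. Of these, btg5.1.L had an adjusted p under 0.05 (-0.29 ± 0.0785, adjusted p = 0.0234), and DESeq2 called btg5.3.L. gs17.L stood at 2.61 and 2.31 TPM in these morphants and 2.74 and 3.98 in GFP controls (-0.44 ± 0.463, adjusted p = 0.885), and btg5.2.S at 7.45 and 10.4 against 13.9 and 11.4 TPM (-0.47, adjusted p = 0.714). Introns of btg5.2.S, at 0.525 and 0.586 against 1.27 and 1.34 RPKM, differed by -1.2 ± 0.413 (adjusted p = 0.144).

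At the higher dose of collection D, also with cycloheximide, gs17.L, btg5.2.S and btg5.3.L all fell in the morphants. gs17.L stood at 0.911 and 2.57 TPM against 12.6 and 10.4 in GFP controls, and fell by 2.59 ± 0.337 (adjusted p = 3.64e-08), with a value of -3.58 without the second morphant library. Its introns stood at 0 and 0.043 against 1.37 and 0.911 RPKM, 46.8-fold apart per exon count (8 to 1887), and the fitted fall of 5.13 became -4.41 or -7.25 without either morphant library. These groups did not overlap. btg5.2.S stood at 0.445 and 1.97 against 8.57 and 6.28 TPM, and fell by 2.46 ± 0.474 (adjusted p = 9.79e-05), with -1.83 and -3.95 without either morphant library. Its introns, at 0.036 and 0.2 against 2.52 and 1.81 RPKM, fell by 3.97 ± 0.454 (adjusted p = 1.06e-09), with -3.30 and -5.71 likewise. btg5.3.L stood at 0.135 and 0.112 against 3.58 and 2.45 TPM, 24.4-fold lower per exon count (6.4 to 207, 2 against 49 counts), with a fitted difference of -4.37 ± 0.918 (adjusted p = 0.000426). Its introns fell by 3.82 ± 0.901 (adjusted p = 0.00186), a call that was lost without the first GFP library (-3.26, adjusted p = 0.0819).

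**Figure D4:**
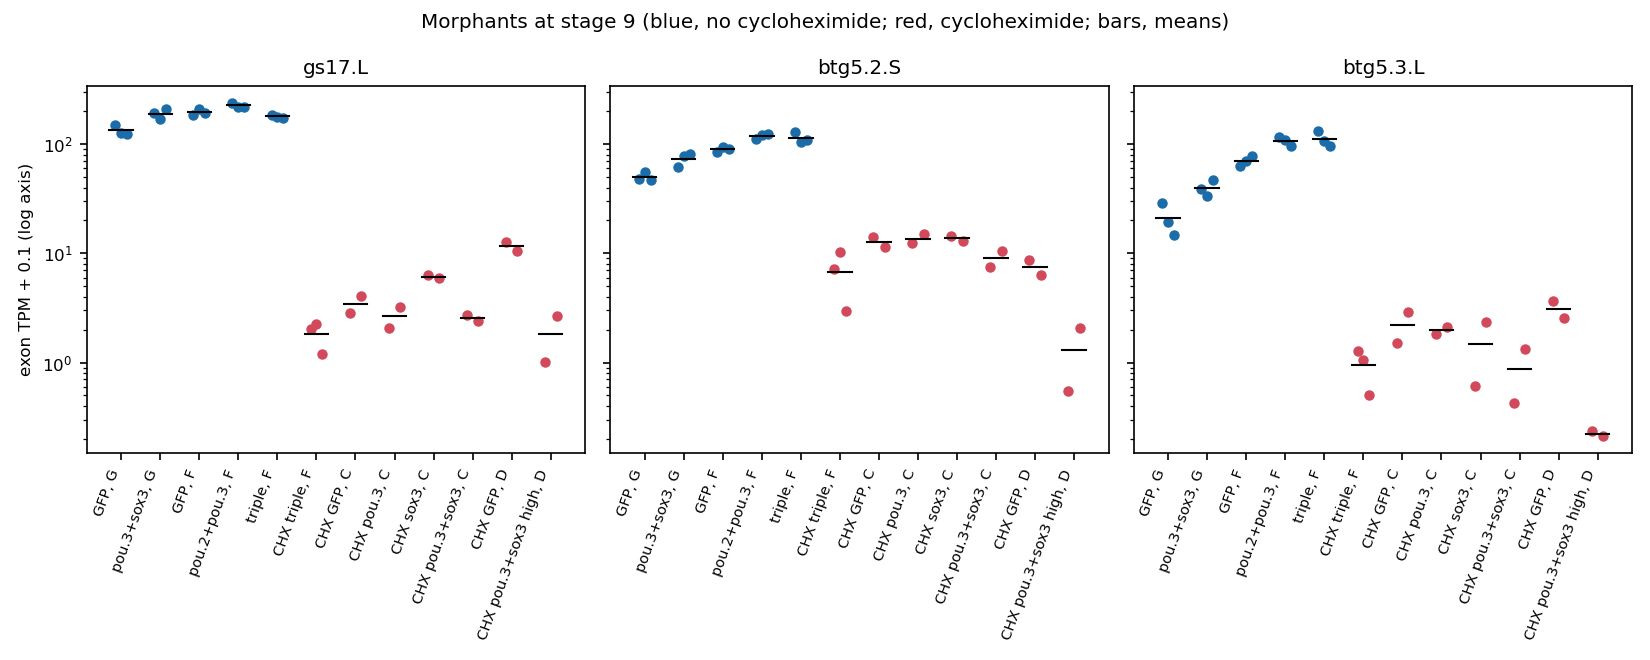
Exon level of gs17.L, btg5.2.S and btg5.3.L in stage 9 morphants of collections G, F, C and D, in TPM plus 0.1 on a log axis, without (blue) and with cycloheximide (red). Points are libraries and bars are group means. Without cycloheximide gs17.L stays between 124 and 239 TPM in these libraries, and with it the high-dose morphants of collection D lie below their GFP controls for all 3 genes.

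btg1.L was the other gene called lower in collection D, by introns alone, at 0.105 and 0.028 against 0.39 and 0.408 RPKM (-2.56 ± 0.822, adjusted p = 0.0416). That call was lost when any of the 4 libraries was left out (-3.56 to -1.88, adjusted p from 0.0707 to 0.485), and also with the replicate number as a block. Its exons stood at 43.2 and 38.7 against 45.8 and 45 TPM. In all, 4 of 12 genes were called in D, all lower in the morphants, where 8.10% of all genes were called, 0.0616% higher and 8.04% lower. The median difference over all genes was 0.02 in exons and -0.86 in introns. The maternal members gave no call there: btg3.S, for example, stood at 182 and 180 against 164 and 168 TPM. Dose, total morpholino and collection all differ between C and D, and the difference between their effects was not tested. GFP controls with cycloheximide also differed, gs17.L standing at 2.74 and 3.98 TPM in C and at 12.6 and 10.4 TPM in D.

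Among the maternal members of the morphant collections, the btg5.1 homeologs differed from controls in opposite directions. In collection F, btg5.1.L stood at 284, 287 and 287 TPM in GFP controls, 231, 229 and 247 in pou5f3.2 and pou5f3.3 morphants and 170, 164 and 166 in triple morphants (-0.83 ± 0.0643 for triple over GFP, adjusted p = 3.24e-15). btg5.1.S stood at 152, 160 and 159, then 162, 168 and 162, then 231, 238 and 242 TPM (0.54 ± 0.0754 for triple over GFP, adjusted p = 9.35e-08). Neither reached the fold threshold, but no library of the triple morphants overlapped with the GFP controls for either gene. How many of all genes separated in this way was not counted. In collection G, btg5.1.L stood at 254, 249 and 228 TPM against 282, 272 and 275 in GFP controls (-0.25 ± 0.0636, adjusted p = 0.00395), and btg5.1.S at 100, 91 and 81.3 against 69.2, 61.6 and 65.6 TPM (0.4 ± 0.0827, adjusted p = 0.000293).

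As a share of the summed level of both copies, btg5.1.L made up 64.5% ± 0.496 (SD, n = 3) in GFP controls of collection F, 59% ± 1.38 in pou5f3.2 and pou5f3.3 morphants and 41.3% ± 0.981 in triple morphants. In collection G it went from 80.8% ± 0.633 to 72.9% ± 1.01 (n = 3). The differences were -5.56, -23.2 and -7.91 percentage points, each with an exact two-sided permutation p of 0.10, the smallest that 3 against 3 libraries allow. In the stage series the L share was 99.3% to 99.4% in stage 5 libraries, 85% and 82.4% in those of stages 6 and 7, and 86.1% to 86.4% in those of stage 8. It was 98.4% to 98.8% in untreated collection A, and up to there it followed the level of btg5.1.S. At stage 10.5 it was 75.1% to 75.9%, where both copies were low, with means of 5.13 TPM for btg5.1.L and 1.67 TPM for btg5.1.S.

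For btg5.2, L supplied most of the summed level before stage 9 and S most of it in stage 9 embryos without inhibitors, while L remained the larger share with cycloheximide in collections B, C, D and F. The L copy supplied 99.2% to 100% of summed btg5.2 TPM at stage 5, 13.3% to 18.6% at untreated stage 9 and 5.15% to 7.4% at stage 10.5. In triptolide L supplied 98.4% to 100% in A and 100% in B, against 12% to 15.2% and 18.8% to 20% in DMSO. With cycloheximide it supplied 54.6% to 61.3% in B, and in collection D it went from 68.3% to 74.3% in GFP controls to 91.3% to 97.4% in high-dose morphants. Since btg5.2.S was chosen for its activation, these shares are a description. For btg4 the L share was steadier, at 38.7% to 39.8% at stage 5, 30.3% to 31.3% at stage 9 and 31.1% to 33.1% at stage 10.5.

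btg3.S was lowest at stage 9 in collection F, at 28.6, 26.3 and 27.2 TPM in GFP controls and at 45.9, 41.5 and 46 TPM in triple morphants with cycloheximide, and it stood at 80.9 to 107 TPM in collection G and 116 to 196 TPM in collection H. All 12 libraries of F lay at 21.8 to 46 TPM, below every other stage 9 library. For how many of all genes collection F lay apart like this was not counted. btg4.S was lower in triple morphants of F (413, 444 and 454 TPM) than in GFP controls (547, 554 and 550 TPM), by a log2 difference of -0.38 (adjusted p = 0.000165). btg1.S stayed between 170 and 235 TPM in every morphant library.

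In RefSeq's order of genes on assembly v10.1, which serves here only for neighbourhood, the btg5 genes stand in a row on both homeologous chromosomes. On chromosome 7L, btg5.3.L, btg5.2.L and btg5.1.L follow each other after kcnn4.L, and on 7S the order is btg3.S, btg5.2.S, an unnamed locus, btg5.3.S and btg5.1.S. Neighbours in this row had different time courses: btg5.3.L stood at 124 and 137 TPM at stage 10.5 beside btg5.2.L at 3.73 and 2.88 TPM and btg5.1.L at 5.32 and 4.95 TPM, and btg5.2.S at 46.6 and 53 TPM beside btg5.3.S, which had at most 3 counts in any library. btg4.L and btg4.S lie elsewhere on 7L and 7S.

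Over the means of 26 conditions, the genes whose log2(TPM + 1) followed gs17.L most closely among 14704 genes were ventx2.1.S, mix1.S, ventx2.2.S and pou5f3.2.S, each with a Pearson correlation of 0.99, and XB5848002.S at 0.98. ventx2.1.S, a homeobox repressor gene of the ventral side, had means of 167 TPM at untreated stage 9, 8.84 with cycloheximide and 352 at stage 10.5, and mix1.S, a mesendoderm homeobox gene, had 58.2, 4.02 and 111 TPM. For btg5.2.S they were hes5.8.L (0.98), not.S (0.97), cxcr4.L (0.97), rasl11b.S (0.96) and foxi4.2.L (0.96). cxcr4.L, a chemokine receptor gene, had 85, 17.6 and 90.1 TPM, and rasl11b.S had 36, 14.6 and 6.92 TPM. These conditions share controls and collections and the correlations are a description only.

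Partners of BTG proteins in deadenylation (35 genes of the CCR4-NOT, PAN2-PAN3 and PARN deadenylases, TOB and poly(A)-binding proteins, all tested) were called in both stage steps. From stage 5 to stage 9, 26 rose and 1 fell, beside 35.4% of all genes called higher and 6.44% lower. All 26 were called higher in introns and 0 in exons, and the median exon difference was -0.17 beside -0.16 over all genes. Only 9941 of the 27601 genes tested had an intron entry, and the median intron difference was 3.54. Here and in the lists that follow, the shares over all genes are therefore no like measure for calls made by introns. Whether any list was called more often than other genes with an intron entry was not tested. Intron rises from stage 5 in these lists also partly follow from leaving out intron stretches covered at stage 5. cnot1.L, the scaffold of CCR4-NOT, had the smallest p, an intron rise of 4.2 ± 0.138 (adjusted p = 3.15e-31). From stage 9 to stage 10.5, 15 were called higher (1 in exons and 14 in introns alone) and 5 lower, beside 25.8% of all genes higher and 14.1% lower, with parn.L exons falling by 2.95 ± 0.101 (adjusted p = 1.72e-30). pabpc1.S had the highest level of the list at 286, 278 and 703 TPM at stages 5, 9 and 10.5. Over triptolide 20 were higher in DMSO in A (27.4% of all genes), 25 in DMSO in B (29.8%) and 10 with cycloheximide in B (14.2%), all in introns alone. Without cycloheximide the morphants gave 1 call among the 35, cnot3.S introns in triple morphants (1.63 ± 0.112, adjusted p = 3.71e-17), and in high-dose morphants 7 were lower, beside 8.04% of all genes.

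Of 29 p53 targets, the class to which mammalian BTG2 belongs, 22 were called higher and 2 lower from stage 5 to stage 9, beside 35.4% of all genes higher and 6.44% lower. Of those higher, 4 were called in exons and 18 in introns alone, and the median exon difference of the list was -0.3. From stage 9 to stage 10.5, 3 rose and 8 fell, beside 25.8% and 14.1% of all genes. The highest levels were those of plk3.S at stage 5 (184 TPM) and bax.S at stages 9 and 10.5 (122 and 196 TPM). DMSO over triptolide called 22 higher in A (6 in exons and 16 in introns alone) and 21 in B (7 and 14), beside 27.4% and 29.8% of all genes. In collection G, 11 were higher (3 in exons and 8 in introns alone) and 1 lower in morphants, beside 3.42% and 1.45% of all genes. There cdkn1a.L introns differed by 2.32 ± 0.251 (adjusted p = 1.23e-10). btg2.S was not called, but it had no intron entry and could be called by exons alone. In collection F, 0 were higher and 1 lower in pou5f3.2 and pou5f3.3 morphants, beside 2.24% and 1.62% of all genes, and 3 were higher and 1 lower in triple morphants, beside 3.86% and 2.83%. In high-dose morphants 7 were lower, beside 8.04% of all genes, with gadd45a.L exons at -3.05.

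Of 55 immediate early genes, a class that holds mammalian BTG2, 25 were called higher and 7 lower from stage 5 to stage 9, beside 35.4% of all genes higher and 6.44% lower. Of those higher, 9 were called in exons and 16 in introns alone, and the median exon difference of the list was -0.21. By stage 10.5, 14 were called higher (9 in exons and 5 in introns alone) and 19 lower against stage 9, beside 25.8% and 14.1% of all genes. klf2.L was highest at stages 5 and 9 (196 and 190 TPM) and zfp36l2.L at stage 10.5 (434 TPM). In collection G, 8 were higher (2 in exons and 6 in introns alone) and 4 lower, beside 3.42% and 1.45% of all genes, with dusp1.S exons falling by 2.13 ± 0.126 (adjusted p = 5.57e-19). In collection F, 3 were higher and 6 lower in pou5f3.2 and pou5f3.3 morphants, beside 2.24% and 1.62% of all genes. In triple morphants 7 were higher and 6 lower, beside 3.86% and 2.83%, and in high-dose morphants 10 were lower, beside 8.04% of all genes.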

How the data were processed

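The values come from whole-embryo RNA-seq libraries. The authors aligned reads to X. laevis v9.2 with HISAT2 (2.2.1 in the submitters' processing notes, another version in the methods) and made the deposited exon and intron counts with featureCounts 2.0.1, strand-specific, without multi-mapped reads. The authors left out of introns stretches covered at stage 5, exons of other forms and repeats. The deposited TPM values were made by the authors from exon counts and lengths. The intron RPKM values, as deposited, relate intron counts to counted intron length and to a library's exon counts.

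The test took exon entries that reached 0.5 CPM in any library (27601) and intron entries that reached 0.25 RPKM with more than 10 counts in any library (9941), in 1 fit of 53 libraries and 26 groups with edgeR 4.0.16 (TMM scaling, quasi-likelihood F-test, R 4.3.3), Benjamini-Hochberg adjusted over all entries. Collection H was left out. A standard error is the size of the log2 difference divided by the root of its F, and medians over all genes come from this fit. Steps were tested on simulated data. DESeq2 1.42.0, other scalings, filters, thresholds, fits and a replicate block were alternatives. Likeness used Pearson's r on log2(mean TPM + 1) among genes of at least 5 TPM in a condition, naming the 5 highest. Floors are 3 counts per library, and ratios with 1 to 3 counts carry exact 95% intervals.

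Replicates are separate sets of embryos of 1 experimental day within a lettered collection, and for other stages nothing says how they were separated, so p-values measure the spread between these sets. Every gene named gs17 or btg followed by a digit is accounted for. The lists of deadenylation partners, p53 targets and immediate early genes name their highest levels by stage and the smallest p of some comparisons. The members and lists were chosen with earlier results of these data known. No gene sequence was used here.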

Additional observations from a re-analysis of the deposited data

Results flagged for a closer look

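The DMSO over triptolide difference of btg5.3.L exons was larger in collection A than in collection B, by a log2 difference of 3.22 (SE 0.781), and the interaction had an adjusted p of 0.0348 in edgeR, with triptolide at 0.515 and 0.132 TPM in A and at 1.5 and 2.65 TPM in B. btg5.3.L was called higher in DMSO in both collections.

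Differences of pou5f3.3 and sox3 morphants from GFP controls were tested between collection C with cycloheximide and collection G without it. They were lower in C for btg1.L exons (-0.66, SE 0.164, adjusted p = 0.00848), btg1.L introns (-2.81, SE 0.726, adjusted p = 0.0114), btg5.2.S introns (-1.46, SE 0.429, adjusted p = 0.0371) and btg5.3.L introns (-2.94, SE 0.84, adjusted p = 0.0283). Cycloheximide and collection cannot be told apart in this comparison. No group held enough libraries for a search for single outlying libraries.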

How the results depend on the processing

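Of 1556 alternative values over 136 tested values of single genes, 1534 kept their direction and their side of the threshold, 8 lost the call, 14 gained it and 0 turned. With a log2 difference of at least 1, the genes called numbered 6 from stage 5 to stage 9, 7 from stage 8 to stage 9 and 1 (btg1.L) in pou5f3.3 and sox3 morphants of collection G. With DESeq2 they numbered 2 in triptolide against stage 5 (btg1.S and btg5.3.L) and 1 (btg5.3.L) in pou5f3.3 and sox3 morphants of collection C. The shares of all genes called at that lower threshold or with DESeq2 were not counted, so these counts of members cannot be set beside them. The cause was not tested. Leaving out 1 library gave 2 to 3 called genes for cycloheximide against triptolide and 3 for the high-dose morphants of collection D, and other counts of members did not move. With a pseudocount of 0.1 TPM, 3 of the 5 genes most like btg5.2.S were shared with the main list. The replicate block called 3 members in place of 4 in collection D and changed no other count of members. Same-numbered libraries correlated at 0.209 to 0.351 in A, -0.574 to 0 in B, -0.044 to 0.115 in C, 0.405 in D, -0.254 to 0.39 in F and -0.22 to 0.068 in G, so the numbers were not taken to pair the samples. In collection B, DMSO against triptolide called 8274 genes, 8141 with the block and 8179 with crossed numbers, chosen after seeing the data, and cycloheximide against triptolide 4064, 3993 and 4034. From stage 9 to stage 10.5, 7111 genes were called higher and 3878 lower, 8291 and 2767 with DESeq2's size factors, which shifted the exon median by 0.262, and 8169 and 2870 when scaled from exons alone (a shift of 0.236). Intron counts of 1 to 3 in triptolide, stage 5 and stage 8 libraries limit the size of the intron differences of btg1.L, btg1.S, btg4.L and btg5.3.L, and comparisons of 2 libraries a group share the spread of all groups in the fit.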

Other observations

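Collections E and H entered no comparison. In E, with 1 library a group, gs17.L stood at 144 TPM in untreated embryos, 231 in GFP controls and 239 in pou5f3.3 and sox3 morphants, btg5.2.S at 49.9, 69 and 74.5 TPM and btg5.3.L at 43.8, 56.3 and 104 TPM.

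In H, gs17.L stood at 95.5 and 75.8 TPM in GFP controls, at 12.6, 12.1 and 11 TPM in the discarded GFP controls with cycloheximide and at 10 and 14.8 TPM in the discarded triple morphants with cycloheximide. btg5.2.S stood at 24.3 and 23, at 15.4, 15.6 and 20.3 and at 13.6 and 19.6 TPM in the same groups, and btg5.3.L at 14.3 and 20.5, at 4.71, 6.3 and 7.87 and at 4.95 and 6.48 TPM. The triple morphants with cycloheximide of collection F held gs17.L at 1.94, 2.15 and 1.1 TPM.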
